A study of Mus musculus with 4 samples.

Results

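Azurophil granules are the first granules that a neutrophil precursor fills, and 7 genes of that stage were examined in mouse macrophages. Mpo encodes the granule's peroxidase, and Elane, Prtn3 and Ctsg encode its serine proteases neutrophil elastase, proteinase 3 and cathepsin G. Ms4a3 encodes a membrane protein of granulocyte and monocyte precursors, and Gfi1 and Cebpe encode transcription factors of granulocyte development. The members were all probe sets whose only gene symbol in the platform annotation was one of these 7. They numbered 6 of 45037 probe sets, 1 for each of 6 genes, and Cebpe had no named probe set. The genes were chosen because of their difference between zymosan and unstimulated cells in these same arrays. That difference is therefore given as a description, with no p-value for a member, and supports nothing.

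The cells were bone marrow-derived macrophages of MyD88 -/- mice, grown for 6 days with recombinant human M-CSF, and every array carries this deficiency. MyD88 relays signals from most Toll-like receptors inside the cell, whereas zymosan is also bound by Dectin-1, a receptor that does not need it. The unstimulated group (2 arrays, 0 min) received no stimulus, and the zymosan group (2 arrays) received 100 ug/ml zymosan, a yeast cell wall particle, for 120 min. By title the unstimulated arrays are labelled LPS and PIC, and the zymosan arrays ZYM. The labels therefore do not show that the unstimulated arrays were baselines of the zymosan experiment. No array of cells with MyD88 was analysed here. Whether the arrays of a group hold RNA of different mice or cultures is not in the labels, so each p-value measures the spread of these arrays only, and that spread may be technical. The macrophage label was checked against markers: Adgre1 lay between 11.06 and 12.01 and Csf1r between 12.89 and 13.31 (RMA log2) on the 4 arrays.

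The values are log2 expression values made by RMA, which gives a number even where a transcript is absent. A probe set entered the tests if at least 2 arrays had it at or above their own 40th percentile, a level of 4.36 to 4.39. The 2 unstimulated arrays were processed on separate days and both zymosan arrays on 1 further day, by another operator and under another project. No day held both groups, so in every difference given here the stimulus cannot be told apart from the day or the operator. Nor, in bulk RNA, can more cells of a type be told apart from more RNA per cell.

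In bone marrow the azurophil genes are switched on together at the promyelocyte stage and switched off as the cell matures. Later stages fill specific and gelatinase granules with other proteins, such as lactoferrin and cathelicidin. The proteases are made as inactive precursors, which cathepsin C trims, and they are stored on the proteoglycan serglycin. Transcription factors of the C/EBP, MYB, RUNX and ETS families, PU.1 among the last, are known regulators of these genes.

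Elane and Prtn3 are neighbours on chromosome 10, with no protein-coding gene between them in RefSeq (GRCm38.p6). The 200 bases before the annotated start of 4 of the genes that were higher with zymosan are shown, since they are the control regions of genes that differed in the same direction. Capitals mark matches, on either strand, to GAGGAA (PU.1), GCAAT (the core that C/EBP proteins bind), AACNG (MYB) and TGTGGT (RUNX). No capitals overlap between motifs. The motifs were chosen with the sequences in view.
Mpo, chr11:87793584-87793783, forward strand: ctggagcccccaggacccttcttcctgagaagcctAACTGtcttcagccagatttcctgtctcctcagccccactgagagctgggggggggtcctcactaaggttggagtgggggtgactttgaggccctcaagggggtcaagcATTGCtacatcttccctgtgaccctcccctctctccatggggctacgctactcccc
Elane, chr10:79886112-79886311, forward strand: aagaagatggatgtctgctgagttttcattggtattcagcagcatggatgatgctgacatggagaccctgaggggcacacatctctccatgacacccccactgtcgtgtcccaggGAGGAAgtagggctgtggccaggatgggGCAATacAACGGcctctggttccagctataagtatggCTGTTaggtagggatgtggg
Prtn3, chr10:79879467-79879666, forward strand: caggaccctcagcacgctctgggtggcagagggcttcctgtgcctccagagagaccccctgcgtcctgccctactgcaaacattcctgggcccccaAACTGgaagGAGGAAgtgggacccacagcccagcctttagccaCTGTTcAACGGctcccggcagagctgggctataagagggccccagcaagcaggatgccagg
Ctsg, chr14:56102575-56102774, reverse strand: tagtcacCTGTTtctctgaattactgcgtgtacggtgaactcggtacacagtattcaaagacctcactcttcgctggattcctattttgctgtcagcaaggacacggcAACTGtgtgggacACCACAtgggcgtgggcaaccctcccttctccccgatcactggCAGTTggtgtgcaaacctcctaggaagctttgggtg

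The sequences are from RefSeq, build GRCm38.p6, where 6 of the 7 members had an entry. The neighbours Elane and Prtn3 both held the PU.1 letters, starting 85 and 95 bases before the start, and both held AACGG, starting 50 and 55 bases before it. Elane also held the C/EBP core, 57 bases before the start, and Mpo held it on the other strand at 56 bases. Ctsg had 3 MYB matches and the only RUNX match, and Ms4a3, at chr19:11640852-11641051 on the reverse strand, had none of the 4 motifs. Over 32817 promoters of the same length, 19.0% held the PU.1 letters, 18.8% the C/EBP core, 65.8% the MYB letters and 11.2% the RUNX letters. Of these 5 genes, 2 held the first, 2 the second, 4 the third and 1 the fourth. A match is only a match of letters, and no binding was measured.

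**Figure D1:**
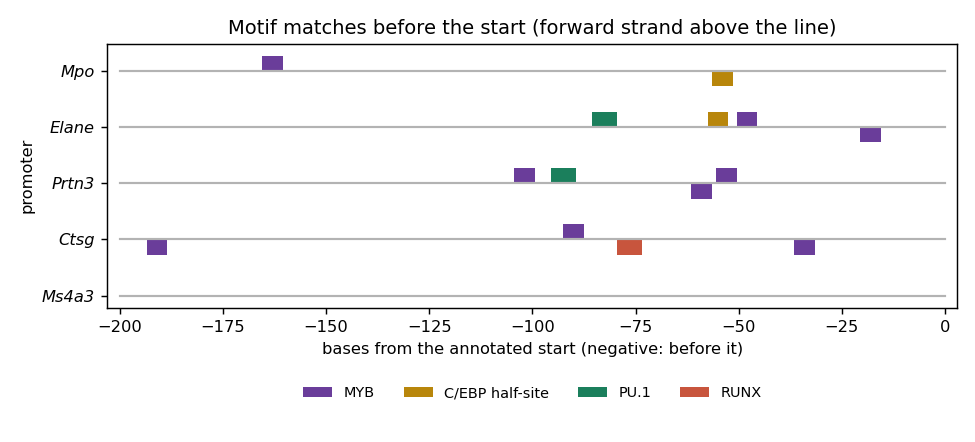
Motif matches in the 200 bases before the annotated start of 5 genes; the x axis is the distance from the start in bases, bars above each line are on the gene's strand and bars below on the other. Elane and Prtn3 have a PU.1 match starting 85 and 95 bases before the start and a MYB match starting 50 and 55 bases before it, and Ms4a3 has no match.

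Mpo, whose product makes hypochlorous acid from hydrogen peroxide, had the largest difference of the members. Its probe set (1415960_at) read 4.53 and 4.53 on the unstimulated arrays and 7.76 and 7.77 on the zymosan arrays (RMA log2). The difference was 3.23 (SE 0.10), a 9.40-fold higher level, with SDs of 0.0024 and 0.012 (n = 2 per group). Each SE given here is limma's, which also draws on the spread of the other tested probe sets or genes. It therefore does not follow from these 2 SDs alone. Unstimulated cells thus sat just above the filter's level, and the lowest zymosan array was 3.22 above the highest unstimulated one. Of the 27571 kept probe sets, 14 had a larger increase, so that Mpo ranked 15. The genes beside it on chromosome 11 include those of other peroxidases. Lpo, for lactoperoxidase, read 5.15 and 4.98 unstimulated against 4.92 and 4.68 with zymosan (difference -0.27, SE 0.13, limma adjusted p = 0.208), and Epx, for the eosinophil peroxidase, did not pass the filter.

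The serine proteases were higher by different amounts. Prtn3, for proteinase 3, a protease that cleaves elastin and cytokine precursors, read 4.82 and 4.74 unstimulated and 6.69 and 6.98 with zymosan (1419669_at). Its difference was 2.05 (SE 0.14), or 4.15-fold, and the zymosan arrays were 1.87 or more above the unstimulated ones. Ctsg, for the chymotrypsin-like cathepsin G, read 5.38 and 5.15 unstimulated and 6.63 and 7.10 with zymosan (1419594_at). Its difference was 1.60 (SE 0.18), or 3.03-fold, with a gap of 1.26 between the groups. The zymosan arrays of Ctsg lay 0.46 apart, and 3.19% of kept probe sets were as far apart within that pair. Elane, for neutrophil elastase, had the smallest difference of the 3 proteases. It read 5.64 and 5.67 unstimulated and 6.91 and 6.63 with zymosan (1422928_at), a difference of 1.11 (SE 0.13), or 2.16-fold, with a gap of 0.96.

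The neighbours Elane and Prtn3 went opposite ways within the zymosan pair, where zymosan 1 minus zymosan 2 was 0.28 for Elane and -0.29 for Prtn3. Some 14.1% and 13.5% of kept probe sets were at least as far apart within that pair. Within the unstimulated pair the differences were smaller, at -0.03 for Elane and 0.08 for Prtn3 (unstimulated 1 minus unstimulated 2).

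Ms4a3, whose product is known as a cell cycle regulator of haematopoietic cells, was dim. It read 3.90 and 4.03 on the unstimulated arrays, both below the filter's level, and 4.89 and 5.05 on the zymosan arrays (1420572_at). The fitted difference was 1.01 (SE 0.12), and against the filter's level Ms4a3 was at least 1.5-fold higher. It passed the filter only through the zymosan arrays, and so could pass only by being higher there. Gfi1, a repressor that limits monocyte genes in granulocyte precursors, read 2.86 and 3.25 unstimulated and 3.09 and 3.23 with zymosan (1417679_at). All 4 values were below the filter's level and the groups overlapped, so Gfi1 was not tested and has no fold.

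**Figure D2:**
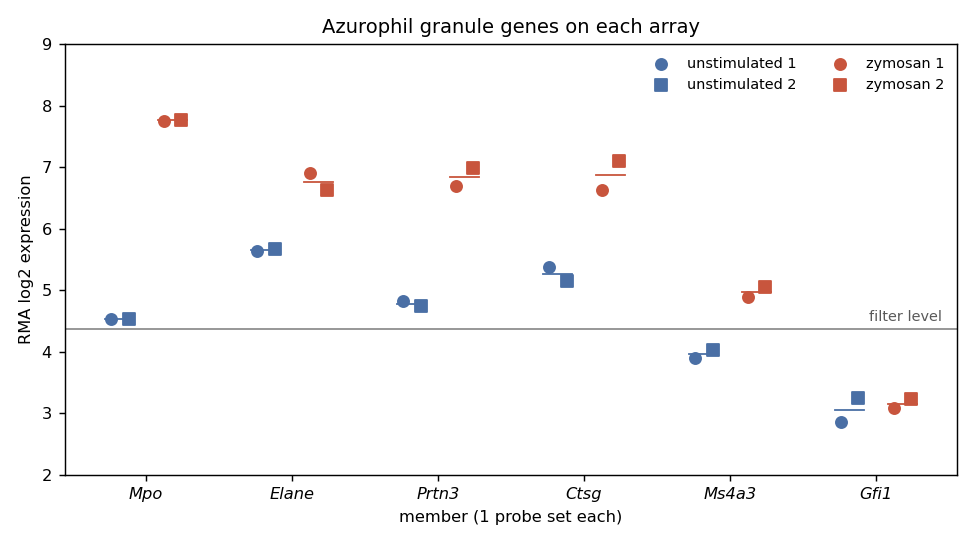
RMA log2 expression (y axis) of the 6 member probe sets (x axis) on each of the 4 arrays; blue points are unstimulated, red points zymosan, short lines the group means and the grey band the filter's level of 4.36 to 4.39. The groups are apart for Mpo, Elane, Prtn3, Ctsg and Ms4a3, whereas Gfi1 lies below the level on every array.

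Of the 6 member probe sets 5 were kept, Ms4a3 through its zymosan arrays alone. Both zymosan arrays were above both unstimulated arrays for those 5, as they were for 30.4% of all kept probe sets. The differences of Mpo, Prtn3, Ctsg and Elane were each at least 1 on the log2 scale, as were 2.52% of kept probe sets in the same direction, whereas that of Ms4a3 is known only as a bound below 1. In the fit over all kept probe sets, limma called 8.48% higher and 7.45% lower. The genes were chosen on this contrast, so the counts over the members restate that choice and nothing is read from them. Across the alternatives that left the probe set in the fit, Mpo lay between 3.22 and 3.26, Prtn3 between 1.91 and 2.20, Ctsg between 1.37 and 1.83, Elane between 0.97 and 1.25 and the fitted difference of Ms4a3 between 0.92 and 1.09.

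The members did not share 1 size of difference. The median absolute difference within the unstimulated pair was 0.11 for the 6 member probe sets and 0.15 for all kept probe sets. Within the zymosan pair it was 0.22 for the members and 0.12 for all kept probe sets. Only Prtn3 (by 0.08) and Ctsg (by 0.23) were higher on unstimulated 1 than on unstimulated 2. Mpo (-0.003) and Elane (-0.03) were nearly level between these arrays, and Ms4a3 and Gfi1 were below the filter's level on both. No direction over the group is therefore read from these signs. When profiles were centred on their mean over the 4 arrays, Elane and Ms4a3 were closest (Euclidean distance 0.34 in log2 units), then Prtn3 and Ctsg (0.48). Mpo was farthest from the others, at 1.2 from Prtn3 and 2.23 from Ms4a3. The size of the difference that the genes were chosen on enters these distances. Those of Ms4a3 also use unstimulated values below the filter's level.

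**Figure D3:**
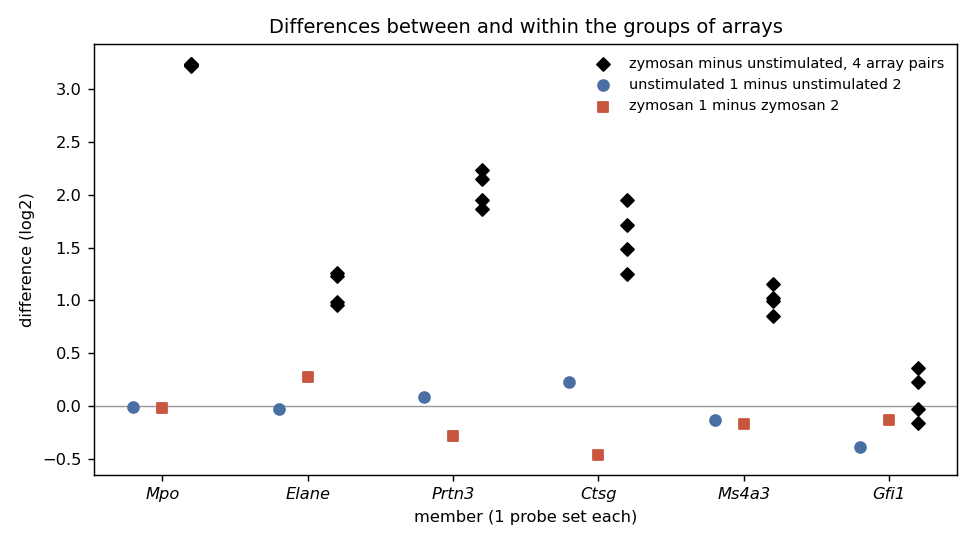
Differences on the log2 scale (y axis) for the 6 member probe sets (x axis): black diamonds are the 4 pairs of a zymosan and an unstimulated array, the blue circle is the difference within the unstimulated pair and the red square that within the zymosan pair. For Mpo the 4 pairs lie between 3.22 and 3.24; for Gfi1 they lie between -0.16 and 0.37, on both sides of 0.

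The genes nearest to each member by that distance, over the same 4 arrays, came from many functions. For Mpo they were Hspa1a (0.11), Cd69 (0.13), Chil3 (0.25), Papss2 (0.27) and Fabp4 (0.28), with the distance in parentheses. Hspa1a encodes an inducible heat shock protein, Cd69 an early activation antigen and Chil3 a chitinase-like protein of myeloid cells. For Elane the nearest were Acss2 (0.09), Trio (0.12), Taf4b (0.14), Relb (0.14) and Chst11 (0.15), and for Prtn3 Cpeb1 (0.12), Mt2 (0.16), Olr1 (0.17), Rffl (0.18) and Ccdc88a (0.20). Those of Ctsg were Gstm2 (0.08), Fzd7 (0.22), Ccdc25 (0.22), Tent5c (0.25) and Eno2 (0.26). Those of Ms4a3 were Mxd1 (0.06), Laptm4b (0.06), Epas1 (0.07), Jag1 (0.08) and Mgst1 (0.09). These distances rest on 4 arrays, and the size of the difference between the groups enters them. Cd69, Olr1, Ccdc25 and Eno2, like Ms4a3, were below the filter's level on both unstimulated arrays. Their distances thus use values near the floor.

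Genes that lie beside the members on the chromosome were mostly not called. Taking 3 protein-coding genes on each side gave 36 neighbours besides the members, of which 29 had a named probe set and 16 were tested. By limma 1 was higher and 1 lower, where 10.1% of all 13222 genes tested were higher and 6.73% lower. The lower one was R3hdm4, beside Elane (-0.42, SE 0.10, adjusted p = 0.0419), and the higher one Slc7a8, an amino acid transporter gene beside Cebpe (0.74, SE 0.12, adjusted p = 0.0128); both were named after their values were seen. Ctsg lies among mast cell protease and granzyme genes on chromosome 14. Of its 6 neighbours 5 were on the array, among them Mcpt8, Mcpt4, Gzme and Gzmd, and none of those 5 passed the filter.

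Other genes of the promyelocyte stage and of primary granules were tested next, with 1 probe set a gene. Of 20 listed, 17 were on the array and 15 were tested. By limma 4 rose and 0 fell (0 also at an unadjusted p under 0.05), and 11 did not pass the test. The list median was 0.13, where the median of all genes was 0.0043. Over all genes tested, limma called 10.1% higher and 6.73% lower. Plac8, a small cysteine-rich protein of myeloid cells, read 4.77 and 5.26 unstimulated and 6.83 and 7.26 with zymosan, a difference of 2.03 (SE 0.21, adjusted p = 0.00417). Mgst1, a microsomal glutathione transferase, rose by 1.08 (SE 0.11, adjusted p = 0.0039), although its other probe set was below the filter's level on all arrays. Alas1, the first enzyme of haem synthesis, and hexokinase 3, Hk3, rose by 0.91 (SE 0.15, adjusted p = 0.0139) and 0.57 (SE 0.11, adjusted p = 0.0203).

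Lyz2, macrophage lysozyme, read 14.03 and 14.11 unstimulated and 14.03 and 14.04 with zymosan (difference -0.04, SE 0.10, adjusted p = 0.844). Gusb, beta-glucuronidase, differed by -0.22 (SE 0.10, adjusted p = 0.189) at the probe set that represented it and by -1.16 at another, which was called lower among probe sets (adjusted p = 0.00987). The count of genes higher fell from 4 to 2 without zymosan replicate 1 and to 1 without zymosan replicate 2. The zymosan and the unstimulated arrays had summed levels (log2 of the sum over the list) of 15.64 to 15.65 and 15.57 to 15.62. Most of each sum came from Lyz2 and Lyz1, the latter at 14.25 to 14.28, so the sums say little about the dimmer genes of the list.

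The machinery that activates, stores and inhibits the serine proteases was tested in 12 of 15 listed genes. By limma 1 rose and 0 fell (5 and 0 at an unadjusted p under 0.05), with a list median of 0.16. Over all genes tested, 10.1% were higher and 6.73% lower. The 1 that rose was Serpinb1a, an intracellular inhibitor of elastase, proteinase 3 and cathepsin G. It read 6.19 and 5.19 unstimulated and 8.75 and 8.91 with zymosan, a difference of 3.13 (SE 0.31, adjusted p = 0.0036), or 8.78-fold. Its unstimulated arrays lay 0.997 apart (SD 0.71, n = 2), and its other probe set was below the filter's level on both of them and read 4.99 and 6.30 with zymosan. That probe set, kept only through the zymosan arrays, did not pass the test among probe sets (adjusted p = 0.0584). Ctsc, for cathepsin C, differed by -0.02 (SE 0.12, adjusted p = 0.928) and Srgn, for serglycin, by 0.07 (SE 0.09, adjusted p = 0.671); both were named after their values were seen, for the roles given above. Cst7, for cystatin F, an inhibitor of cathepsin C, differed by 0.49 (SE 0.17, adjusted p = 0.107). Without unstimulated replicate 1 the count higher was 2.

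Regulators of granulocyte development and growth factor receptors went both ways. Of 20 listed genes 19 were tested, and by limma 2 rose and 5 fell, with a median of -0.19. The same fit called 10.1% of all genes higher and 6.73% lower. Myb, a factor of immature haematopoietic cells, read 3.94 and 3.68 unstimulated, below the filter's level, and 4.88 and 4.80 with zymosan. It was at least 1.37-fold higher. Like Ms4a3, it passed the filter only through the zymosan arrays, and so could pass only by being higher there. Its other 2 probe sets were below the level on all arrays. With the filter on the mean of all arrays, 1 of these regulators was higher. Cebpb, the C/EBP factor of inflammatory responses, rose by 0.85 (SE 0.11, adjusted p = 0.0079), while Cebpa, the C/EBP factor of early granulocyte commitment, differed by 0.33 (SE 0.10, adjusted p = 0.0859). The 5 that fell were Il3ra, a subunit of the interleukin-3 receptor (-1.50), Runx1 (-1.01), Ets1 (-0.53), Rara (-0.45) and Spi1, which encodes PU.1 (-0.42, SE 0.11, adjusted p = 0.0491); Cebpa, Rara and Spi1 were named after their values were seen. The fall of Ets1 rests on 1 of its 4 probe sets, since the others differed by -0.25, -0.06 and 0.09 without passing the test (adjusted p = 0.178, 0.891 and 0.65), while 4 of the 6 probe sets of Runx1 were called lower. Csf3r, the receptor of G-CSF, differed by 0.13 (SE 0.12, adjusted p = 0.524). By limma 0 were higher and 1 lower without either zymosan array (3 and 4 at an unadjusted p under 0.05 without zymosan replicate 1, 2 and 5 without zymosan replicate 2), 4 were higher without unstimulated replicate 1, and a random block for the day left 2 lower.

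Genes of later neutrophil granules and of mature neutrophils were tested in the same way. Of 22 listed, 18 were on the array and 15 were tested. By limma 8 rose and 0 fell (10 and 1 at an unadjusted p under 0.05). Over all genes tested, 10.1% were higher and 6.73% lower. The list median was 0.78. One of the 8, Pglyrp1, a peptidoglycan recognition protein, was below the filter's level on both unstimulated arrays, was kept only through the zymosan arrays and was at least 1.05-fold higher; it was named after its values were seen. With Pglyrp1 at that bound the list median was 0.36, and with the filter on the mean of all arrays 7 genes were higher. Mmp8, neutrophil collagenase, had the largest difference of the list (3.48, SE 0.34, limma adjusted p = 0.0036) and was named after its value was seen. It read 6.18 and 5.05 unstimulated, 1.12 apart, and 9.05 and 9.15 with zymosan. Chil3 read 5.92 and 5.62 unstimulated and 8.84 and 8.98 with zymosan (difference 3.14, SE 0.13, adjusted p = 0.000319). The calprotectin subunits S100a8 and S100a9 rose 5.62-fold (adjusted p = 0.000634) and 5.21-fold (adjusted p = 0.000356). Lcn2, an iron-siderophore binding protein, rose 3.25-fold, Ngp, neutrophilic granule protein, 3.15-fold, and Camp, cathelicidin, 1.95-fold (adjusted p = 0.0107). Ltf, lactoferrin, differed by 0.36 (SE 0.11, adjusted p = 0.0874). Mmp9, gelatinase B, was at 5.28 and 6.10 unstimulated and 4.98 and 4.93 with zymosan (difference -0.73, SE 0.25, adjusted p = 0.107). Cxcr2 was below the filter's level on every array, and Ly6g had no named probe set. The list's summed level was 13.37 to 13.52 unstimulated and 13.76 to 13.80 with zymosan. Of these markers of neutrophils, 8 moved in the direction of the azurophil genes, while 7 were not called and their differences went both ways. The part of these markers in the difference of the members was not tested. The difference between this list and the others was not tested either.

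**Figure D4:**
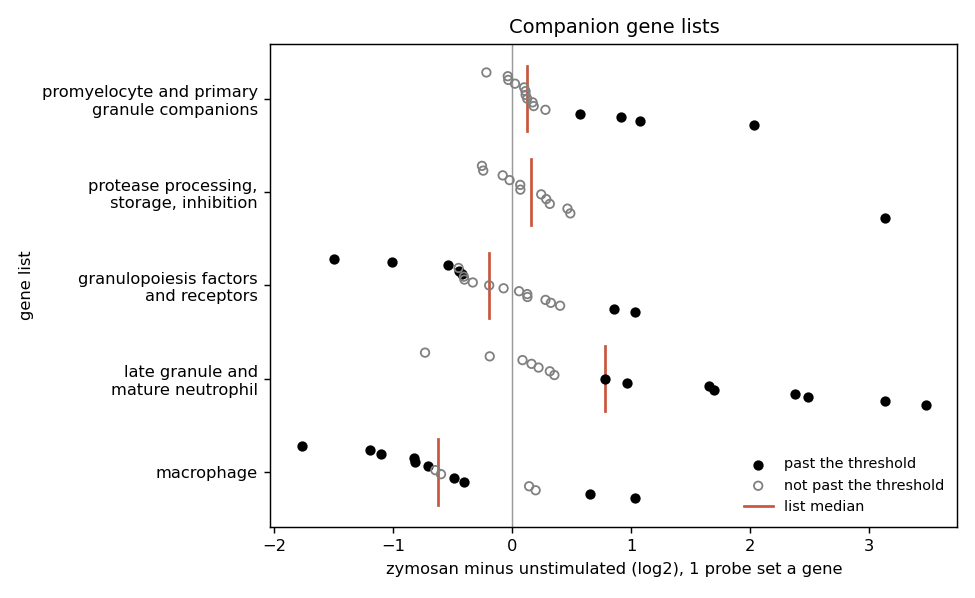
Difference between zymosan and unstimulated arrays on the log2 scale (x axis) for each tested gene of 5 lists (y axis); filled points passed limma's threshold, open points did not, and the red line is the list median. Of the promyelocyte companions 4 of 15 rose, of the late neutrophil genes 8 of 15 rose, and of the macrophage genes 8 of 14 fell and 2 rose. Over all genes tested, 10.1% were higher and 6.73% lower.

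Markers of other cells moved as follows beside the members, where 10.1% of all genes tested were higher by limma and 6.73% lower. Of 14 macrophage genes tested, 8 fell and 2 rose by limma (median -0.62, summed level 15.90 to 16.14 unstimulated and 15.73 to 15.74 with zymosan). Adgre1 fell by 0.82 (adjusted p = 0.00814), and Cd68 differed by 0.20 (adjusted p = 0.238). Leaving out either zymosan array left 1 lower, and a random block for the day left 5. Of 9 monocyte genes 5 fell and 3 rose (median -0.89, summed level 11.82 to 11.90 and 11.14 to 11.21), with 3 lower and 1 higher without either zymosan array. The 5 that fell were Cx3cr1 (-2.77), Itgam (-1.66), Pld4 (-1.45), Spn (-1.14) and Ccr2 (-0.89). The 3 that rose were Nr4a1 (1.37), Fn1 (0.79) and Treml4 (0.58). Ccr2, Fn1 and Treml4 were named after their values were seen. F13a1, a factor XIII subunit of the monocyte lineage, stood at 5.98 and 8.33 on the unstimulated arrays and 9.69 and 9.51 with zymosan. It did not pass the test (adjusted p = 0.0629). Kit, on the stem and early progenitor list, did not pass the filter and was not tested. At its probe set of larger difference it read 3.46 and 3.76 unstimulated and 4.35 and 4.66 with zymosan, 0.89 higher. Only zymosan 2 reached the filter's level there, and the other probe set of Kit differed by 0.03. Of the 9 stem and early progenitor genes tested, which leave out Kit, 0 rose by limma (0 also at an unadjusted p under 0.05). Among them 1, Sox4, fell by limma, at 2 of its 7 kept probe sets (summed level 11.62 to 11.87 and 11.84 to 12). A random block for the day left 0 of them lower by limma (1 at an unadjusted p under 0.05), and leaving out either unstimulated array gave 1 higher. Their part in the result was not tested.

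Mast cell, basophil and eosinophil markers were near the floor of the array. Of 15 on the array 13 did not pass the filter, among them Mcpt8, Cpa3, Fcer1a, Prg2, Epx and Siglecf. The 2 tested, Hdc and Tpsb2, differed by -0.07 and 0.11, so that by limma 0 rose and 0 fell (0 and 0 at an unadjusted p under 0.05), and their summed level was 5.86 to 6.02 unstimulated and 5.94 to 5.96 with zymosan. Of 5 lymphoid genes 1, Cd79b, fell, of 7 dendritic cell genes Batf3 rose and Itgax fell, and of 6 stromal genes 1, Postn, fell, at least 1.24-fold, since both zymosan arrays were below the filter's level. No lymphoid or stromal gene rose by limma, nor at an unadjusted p under 0.05 (0 and 0). Of 7 erythroid and megakaryocyte genes 3 rose, namely Tfrc, the transferrin receptor, and the platelet chemokines Pf4 and Ppbp, and 0 fell by limma (1 at an unadjusted p under 0.05). Tfrc rose at 1 of its 3 probe sets, and the others differed by 0.15 (adjusted p = 0.783) and -0.66 (adjusted p = 0.149). Of 17 proliferation genes 4 rose and 1 fell, among the risers Mki67 (0.69, SE 0.10, adjusted p = 0.00894). Beside these lists, 10.1% of all genes tested were higher and 6.73% lower. With a random block for the day, limma called 1 proliferation gene higher and 0 lower (4 and 1 at an unadjusted p under 0.05). The calls of the lymphoid gene, of Batf3 and of Postn were lost under it (1, 1 and 2 genes of their lists in that direction at an unadjusted p under 0.05), and 1 dendritic gene was lower. Leaving out either zymosan array left 1 erythroid and megakaryocyte gene higher, and limma then called 0 dendritic, lymphoid, stromal or proliferation genes in either direction. At an unadjusted p under 0.05, 4 and 3 proliferation genes were still higher without zymosan replicate 1 and 2, and 1 each lower, as were 1 dendritic gene higher and 1 lower, 1 lymphoid gene and 1 stromal gene lower in both.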

How the data were processed

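RNA was measured on 4 Affymetrix Mouse430_2 arrays, 2 per group. The deposited log2 values, 1 per probe set and array, are the authors' RMA values, per the submitters' processing notes, which name no version. The settings files, deposited as other text, were read only for chip type, processing day, operator and project. Of 45037 probe sets without the 64 controls, 34945 had 1 gene symbol, 932 several and 9160 none in the platform annotation. After the filter 27571 probe sets and, by the probe set of highest mean, 13222 genes were tested with limma 3.58.1 (lmFit, eBayes; R 4.3.3), 2-sided, with Benjamini-Hochberg adjustment over all of them and a threshold of 0.05. The fit was tested on simulated data with independent errors and no effect of the day. That test therefore does not cover these arrays, where no day held both groups. The smallest p of an exact permutation test over 2 and 2 arrays is 0.333, and the number of arrays limits the precision. Where a group lay wholly below the filter's level, the fold was taken against that level.

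The members and the 13 gene lists were chosen with earlier results of these data known. Named are all member probe sets, up to 5 genes of smallest p and 2 of largest difference not called from each list, fixed macrophage and neutrophil markers, and the 5 genes nearest to each member; in the text some of these are left out. Alternatives were other filters, normalizations and variance models, the day as a random block, the median of a gene's probe sets, and leaving out each array.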

Additional observations from a re-analysis of the deposited data

How the results depend on the processing

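The median difference of the 5 kept member probe sets was 1.60, and 1.37 to 1.83 when each array was left out. It was 1.83 with the filter at the 60th percentile, which removed Ms4a3. The fit over all probe sets, which is no test of genes chosen on this contrast, put 5 members past the threshold. It called 8.48% of all kept probe sets higher. Ms4a3, among the 5, entered the fit only through its zymosan arrays. Elane and Ms4a3 were no longer past the threshold without zymosan replicate 1, nor Ctsg and Ms4a3 without zymosan replicate 2. Over all probe sets, limma called 231 to 2531 higher and 157 to 2280 lower when each array was left out, and 741 and 647 under a random block for the day. For genes these counts were 159 to 1791 and 97 to 1125, and 453 and 307 with the block, against 1335 and 890. The block's correlation came from a moment estimate (0.54 for probe sets and 0.57 for genes), chosen after seeing the data. The planned duplicateCorrelation was not run, since it needs more than 4 arrays for this design.

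When each array was left out, the promyelocyte companions had 1 to 4 genes higher, the protease machinery 1 to 2, the regulators 0 to 4 higher (2 to 6 at an unadjusted p under 0.05) and 1 to 5 lower, and the late neutrophil genes 0 to 1 lower by limma. Of the regulators 1 was higher under the filter at the 60th percentile and under the filter on the mean of all arrays, and 2 were lower with the block. With the median of a gene's probe sets, 1 promyelocyte companion and 1 late neutrophil gene were lower. The causes were not tested. Over all results and alternatives 0 reversed, 61 were weaker, 7 stronger and 3, all medians of the members given above, moved by more than the spread between arrays. The remaining 400 include counts that changed by no more than 1.5 times, such as 4 to 3 promyelocyte companions and 8 to 6 late neutrophil genes higher under the block. No paired analysis was possible because the labels give the arrays no shared replicate numbers.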
